A study of Mus musculus with 103 samples.

Results

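Neuroepithelium captured beneath the medial nasal prominence was compared with neuroepithelium captured beneath the lateral nasal prominence in mouse embryos at E10.5, in 4 libraries a side, 8 of the 103 samples in the series. Libraries were placed by the tissue named in their labels. The labels of the medial libraries conflict: the tissue field, source name and description of all 4 give the medial prominence, whereas their titles give the lateral prominence with numbers 5 to 8. They were taken as medial libraries 1 to 4 by the fields that name the tissue, and no expression value was used to place them. If the titles were right, both groups would be lateral and the comparison would not exist. The series is an atlas of face-forming regions from E8.5 to E10.5. All embryos were CD1, an outbred strain, with no mutation or treatment given. Tissue was flash frozen, cryosectioned and captured by laser with an Arcturus Veritas instrument, then amplified and hybridised to Affymetrix whole-transcript arrays. A pair of other E10.5 neuroepithelium groups, each of 4 CD1 libraries, were set beside them: neuroepithelium at the midline, and control neuroepithelium taken away from the facial prominences. The facial tissue overlying the captured epithelium was represented by 4 libraries each of the medial nasal prominence and the lateral nasal eminence.

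The anterior neural tube becomes divided into regions by signals from its margins and midline, among them FGFs from the rostral ridge, sonic hedgehog from ventral cells, and BMPs and WNTs from dorsal cells. Regional transcription factors read these signals. Pax6 and Neurog2 are known for dorsal telencephalic progenitors and for the optic and olfactory areas, and Olig2 for ventral progenitors, whereas Fgf8, Fgf15 and Fgf17 are ligands known in the rostral midline. This neuroepithelium lies against the growing nasal prominences and is a source of signals to them.

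Values are log2 of the deposited ratios, in which each gene is relative to its own median over a baseline set of samples. A value of 0 is that median, so a value shows no absolute level and levels of different genes cannot be set against each other. Capture was from tissue, so fewer cells of a type and less RNA per cell cannot be told apart. The labelled tissue was checked on marker lists. The mean over 15 neural epithelium markers was 1.26 to 1.85 in the 8 libraries, against -0.62 to 0.00 in the 8 prominence libraries. The mean over 16 mesenchyme and neural crest markers was -0.82 to -0.48 in the 8 libraries, against 0.45 to 1.60 in the prominences. All 8 libraries were thus on the neural side of both lists.

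The lateral libraries were less alike than the medial ones. The mean correlation of a library with the others of its group, across genes, was 0.34 to 0.46 for medial libraries and 0.16 to 0.26 for lateral libraries. Lateral library 1 was most like medial library 2, with r = 0.59, and lateral library 3 was most like medial library 4, with r = 0.40. Lateral libraries 2 and 4 were most like each other, with r = 0.33. Medial libraries also matched other groups: libraries 1 and 2 were most like control library 1, with r = 0.61 and 0.63. Medial library 4 was most like control library 4, with r = 0.62, and medial library 3 was most like medial library 4, with r = 0.37. The lower tail also differed: the 5th percentile of log2 ratios was -1.56 in lateral library 4 and -1.03 in lateral library 2, and lay between -0.66 and -0.29 in the other 6. These are descriptions across genes, which are not independent replicates.

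Of 19938 genes tested, 35 were higher under the medial prominence and 0 were higher under the lateral prominence at an adjusted p under 0.05 (limma, Benjamini-Hochberg), which is 0.176% of the genes. At an unadjusted p under 0.05, 1180 genes were higher and 363 lower in medial libraries, 7.74% in all. For 21 of the 35 genes the 4 medial values lay above the 4 lateral values, while over all genes the libraries did not overlap for 4.87%, 3.02% with medial higher and 1.84% with medial lower. Most of the 35 stood near their baseline in lateral libraries: in 28 genes all 4 lateral values were under 1, and in 24 all were within 0.5 of 0. The share of all genes within these limits was not counted, and the median SD within the lateral group was 0.186 over all genes. This is therefore not shown to be particular to the 35. The calls rest on a spread estimated over 102 libraries in 22 groups: with these groups alone in the fit 1 gene passed, which was none of the 35, and with the 4 E10.5 neuroepithelium groups alone 0 passed, with 1835 at an unadjusted p under 0.05. The one-sided split also depended on libraries: without lateral libraries 2 and 4 together, an alternative added after seeing the data, 25 genes passed, 11 higher and 14 lower in medial libraries, and 11 of them were among the 35. Without lateral libraries 1 to 4 in turn, 73, 27, 28 and 25 genes were higher and 3, 9, 6 and 5 lower. Without medial libraries 1 to 4 in turn, 76, 49, 67 and 42 were higher and 1, 3, 1 and 2 lower. Of the 35 genes, 20 (without medial library 4) to 32 (without lateral library 1) passed again when 1 library was left out. After quantile normalization 10 genes passed, 7 higher and 3 lower. The labels do not tie libraries to embryos, so the p-values measure only the spread between libraries, which may be technical, and are too small if libraries share an embryo.

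**Figure D1:**
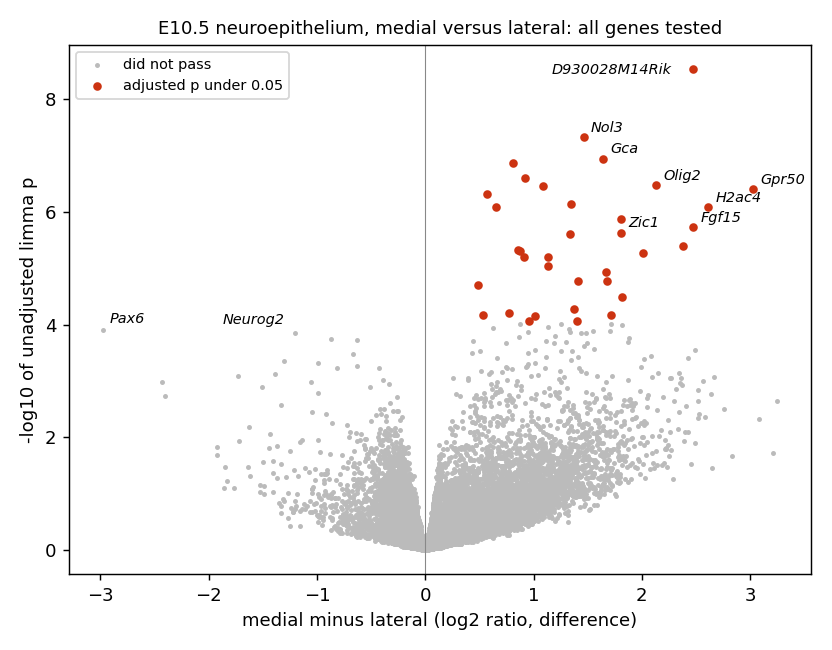
Difference between medial and lateral neuroepithelium for each gene tested (x axis, log2 ratio, medial minus lateral) against the unadjusted limma p on a -log10 scale (y axis). The 35 genes that passed are red and all lie to the right of 0. Pax6 and Neurog2, on the left, did not pass.

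The ventral forebrain genes Gpr50 and Olig2, together with Fgf15, were supplied as markers of this contrast, so their differences are descriptions of known markers. Gpr50 encodes an orphan receptor related to the melatonin receptors and known in the hypothalamus. Its values in medial libraries 1 to 4 were 1.61, 2.29, 3.94 and 4.50. The lateral values were -0.04, -0.06, 0.34 and -0.01, and the groups did not overlap. The difference was 3.02 ± 0.55 on the log2 scale (SE, n = 4 and 4), a ratio of 8.14, with adjusted p = 0.00099. This SE, like each SE below, uses the spread shared over the 22 groups, not that of the 8 libraries alone. The SD of Gpr50 was 1.355 in medial and 0.19 in lateral libraries. All 4 control libraries, at -0.22 to 0.50, lay near the lateral ones. The midline libraries were divided, at 1.05, -0.21, 3.77 and 4.60.

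Olig2 encodes a basic helix-loop-helix factor of ventral progenitors that give motor neurons and oligodendrocytes. It was at 1.47, 3.37, 3.65 and 3.00 in medial libraries. Lateral libraries had 0.32, 0.48, 1.39 and 0.78, every one below the lowest medial value, although lateral library 3 came close to medial library 1. Olig2 was higher in medial libraries by 2.13 ± 0.38 (SE, n = 4 and 4), 4.39-fold, with adjusted p = 0.00099. In midline libraries it was at 1.50, 2.81, 5.96 and 3.55. Its neighbour Olig1, a related factor, had a difference of 1.89 ± 0.48 with adjusted p = 0.065 and did not pass.

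Fgf15 encodes a secreted growth factor of neural progenitors. Medial values were 4.48, 4.00, 4.31 and 1.92, and lateral values were 2.48, 2.83, -0.41 and -0.08. The groups overlapped, since medial library 4 lay below lateral libraries 1 and 2. The difference was 2.47 ± 0.48 (SE, n = 4 and 4), with adjusted p = 0.0027. Midline libraries were at 2.95 to 4.00 and control libraries at 0.67 to 2.95.

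**Figure D2:**
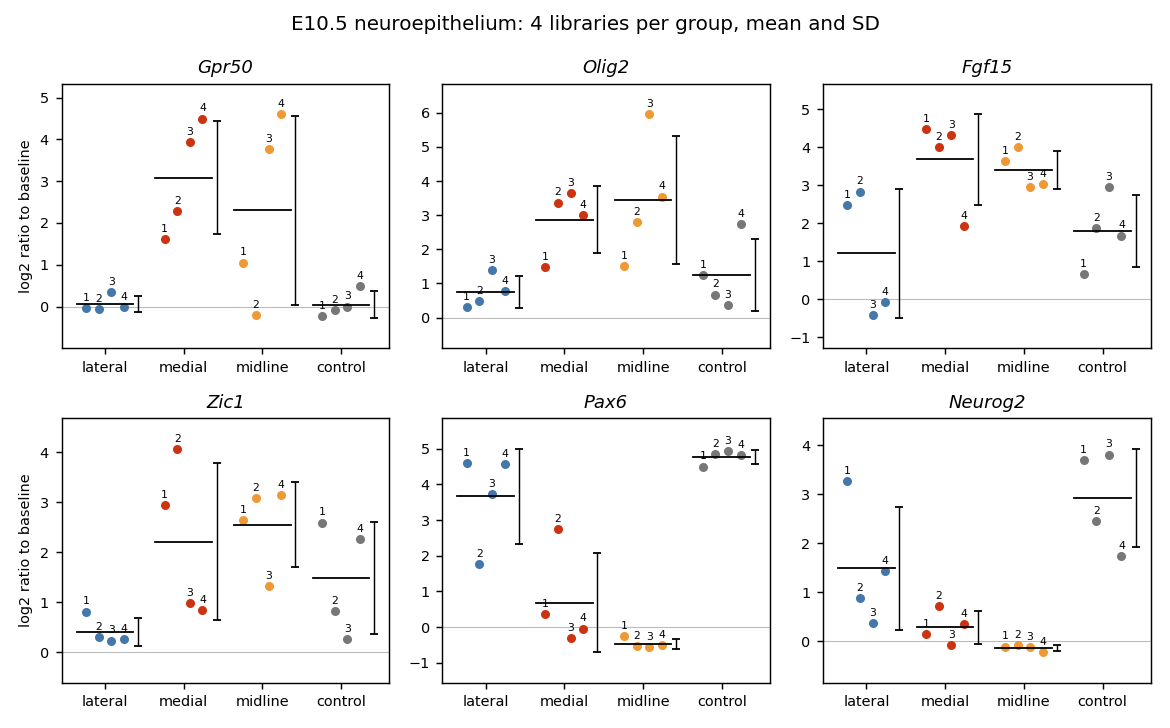
Log2 ratios to baseline (y axis) of 6 regional genes in the 4 lateral, medial, midline and control neuroepithelium libraries, numbered within each group, with the group mean (line) and SD (bar). Gpr50, Olig2 and Zic1 are higher in every medial library than in any lateral library, whereas Pax6 and Neurog2 overlap between these groups.

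The promoters of Gpr50 and Olig2 are shown because these genes carried the clearest difference of the supplied markers. Each runs from 250 bases before to 50 after the annotated start, from RefSeq on GRCm38.p6, whereas the submitters' processing notes name mm9. Capitals mark a TCF/LEF motif, the only match found in either. Gpr50 is at chrX:71663417-71663716 on the plus strand and Olig2 at chr16:91225300-91225599 on the plus strand.
Gpr50: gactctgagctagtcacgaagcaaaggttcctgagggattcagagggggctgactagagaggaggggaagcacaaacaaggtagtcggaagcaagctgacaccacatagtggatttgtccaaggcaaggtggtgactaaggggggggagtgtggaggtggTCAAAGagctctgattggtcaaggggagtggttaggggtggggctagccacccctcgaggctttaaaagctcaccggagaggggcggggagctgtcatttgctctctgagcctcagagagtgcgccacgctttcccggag
Olig2: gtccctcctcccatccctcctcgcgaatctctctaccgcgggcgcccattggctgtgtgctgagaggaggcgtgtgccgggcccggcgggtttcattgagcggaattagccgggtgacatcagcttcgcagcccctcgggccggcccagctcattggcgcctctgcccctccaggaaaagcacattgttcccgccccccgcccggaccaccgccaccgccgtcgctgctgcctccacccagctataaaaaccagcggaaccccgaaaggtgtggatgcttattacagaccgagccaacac
Both strands were searched for the letters CTTTGA (TCF/LEF), GACCACCCA (GLI) and TAATCC (OTX), and no match overlapped another. Of 13 genes looked up, the 3 supplied markers and the genes with the largest non-overlapping differences, 9 had an entry, with 10 promoters. CTTTGA was in 3 of the 10 (Gpr50, Mfsd2a and 1 of 2 Anxa4 promoters), against 16% of 32817 promoters. TAATCC was in 1, that of Fgfbp3, against 7.06%, and GACCACCCA was in 0, against 0.253%. A match is a description of letters, not of a binding site.

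Among the 26 pallium and dorsal forebrain genes measured, 1 rose in medial libraries and 0 fell, with a median difference of -0.08, against 0.02 over all genes. The 1 was Zic1, a zinc finger factor known in dorsal and medial forebrain. Its values were 2.95, 4.07, 0.99 and 0.85 in medial libraries and 0.81, 0.30, 0.24 and 0.27 in lateral libraries. The groups did not overlap, but medial library 4 exceeded lateral library 1 by little. The difference was 1.81 ± 0.36 (SE, n = 4 and 4) with adjusted p = 0.0031.

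Pax6 had the most negative difference of all genes tested. It stood at 0.35, 2.74, -0.30 and -0.04 in medial libraries and at 4.59, 1.77, 3.73 and 4.57 in lateral libraries. Medial library 2 lay above lateral library 2, and the other values were separate. The difference was -2.98 ± 0.74 (SE, n = 4 and 4), with adjusted p = 0.056, and did not pass. It passed in 6 of 20 alternatives, among them those without lateral library 2 and without medial library 2, with adjusted p from 0.0097 to 0.53 over all 20. Control libraries were all high, at 4.50 to 4.92, and midline libraries all low, at -0.56 to -0.26.

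Neurog2, a proneural factor of dorsal progenitors, had medial values of 0.15, 0.72, -0.07 and 0.35 and lateral values of 3.26, 0.88, 0.37 and 1.44. The groups overlapped and the difference, -1.20 ± 0.30, had adjusted p = 0.056. It passed in 3 of 20 alternatives, those without lateral library 2, lateral library 3 or medial library 2, with adjusted p from 0.0038 to 0.55 over all 20. The nuclear receptor genes Nr2f1 and Nr2f2, known for caudal and lateral forebrain territories, had differences of -1.62 ± 0.58 and -1.43 ± 0.53, neither of which passed. For Nr2f2 lateral library 1, at 2.59, stood above lateral libraries 2 and 3, at -1.39 and -1.19.

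In the ventral telencephalon and hypothalamus list, 2 of 23 measured genes rose, Gpr50 and Olig2, and the median difference was 0.08. Those 2 were among the supplied markers. Dlx1, a homeobox factor of the ganglionic eminences, was at 0.05, 2.15, 2.60 and 2.44 in medial libraries and 2.71, 0.92, 0.54 and 0.89 in lateral libraries, with a difference of 0.54 ± 0.40. Nkx2-1, a factor of the hypothalamus and medial ganglionic eminence, had a difference of 0.39 ± 0.27, and Shh, the ventral signal itself, of -0.07 ± 0.24. The mean over the list was 0.43 to 0.76 in medial libraries and 0.14 to 0.27 in lateral libraries. These means include Gpr50 and Olig2.

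Hedgehog reception and response genes gave 0 calls of 14, with a median difference of -0.06. Nkx2-9, a homeobox gene responsive to hedgehog, had a difference of 1.99 ± 0.61 with adjusted p = 0.21. Ptch1, the hedgehog receptor and a standard readout of the pathway, differed by 0.06 ± 0.13. Gas1, a hedgehog co-receptor, was lower in every medial library (-0.57 to -0.37) than in any lateral library (-0.13 to 0.52), with a difference of -0.66 ± 0.27 that did not pass, adjusted p = 0.51. Gli1 and Gli2, transcription factors of the pathway, were also lower in every medial library, by small amounts. Gli1 was at -0.27 to -0.12 in medial and -0.05 to 0.06 in lateral libraries, a difference of -0.20 ± 0.15 with adjusted p = 0.78. Gli2 was at -0.31 to -0.06 and -0.05 to 0.10, a difference of -0.20 ± 0.12 with adjusted p = 0.74. In all, 3 of the 14 genes (21.4%) were apart with medial lower, against 1.84% of all genes, and 0 with medial higher, against 3.02%. None of the 3 passed.

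The FGF list held ligands, receptors, the Etv transcription factors that respond to FGF, and the Sprouty and Dusp feedback inhibitors. Of 20 measured genes 1 rose, Fgf15, and 16 had a positive difference, with a median of 0.44, whereas over all 19938 genes 11092 were positive and 8846 negative. The mean over the list, which includes the supplied marker Fgf15, was 1.02, 1.23, 0.28 and -0.08 in medial libraries. In lateral libraries it was 0.01, 0.10, -0.17 and -0.09. Means without Fgf15 were not computed. Midline libraries were divided in the same manner, at 1.01, 1.35, 0.13 and 0.06. Medial and midline libraries 1 and 2 were therefore high and libraries 3 and 4 low or intermediate, although medial titles carry other numbers, so a number ties no medial library to a midline one.

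Fgf17, a rostral FGF ligand, showed this division at its widest. It was at 4.46, 5.35, -0.24 and -0.43 in medial libraries, and every lateral value was between -0.34 and -0.02. In midline libraries it was at 4.17, 3.74, 0.00 and -0.20. The medial minus lateral difference was 2.40 ± 0.88 with adjusted p = 0.40. Fgf8 had its one high medial value in library 2, at 2.45, and the other medial values were -0.70 to 0.19.

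Spry1, a feedback inhibitor of FGF signalling, was at 0.91, 1.49, 2.19 and -0.88 in medial libraries and -0.96 to -0.62 in lateral libraries, with a difference of 1.70 ± 0.52 and adjusted p = 0.21. Etv1, an ETS factor responsive to FGF, was at 2.00, 2.29, -0.05 and 1.04 in medial libraries and -0.07 to 0.09 in lateral libraries, and its difference of 1.33 ± 0.33 had adjusted p = 0.056. Lhx5, a LIM homeobox gene of the dorsal and caudal forebrain, was at 2.91, 2.74, -0.05 and 0.36 in medial libraries, 3.62, 3.77, 0.50 and 0.13 in midline libraries, and -0.29 to 0.08 in lateral libraries. Gpr50 ran the other way, with its higher medial and midline values in libraries 3 and 4. Zic1 was also high in medial libraries 1 and 2, but in midline library 4 it was at 3.15. Lhx8, a LIM homeobox gene of the ventral telencephalon, was high in medial library 4 alone, at 4.69, against 1.05 or less in the other medial libraries and 0.00 or less in lateral libraries. Etv1, Lhx5 and Lhx8 were chosen after their values were seen, and the labels give no position along the midline for any library.

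**Figure D3:**
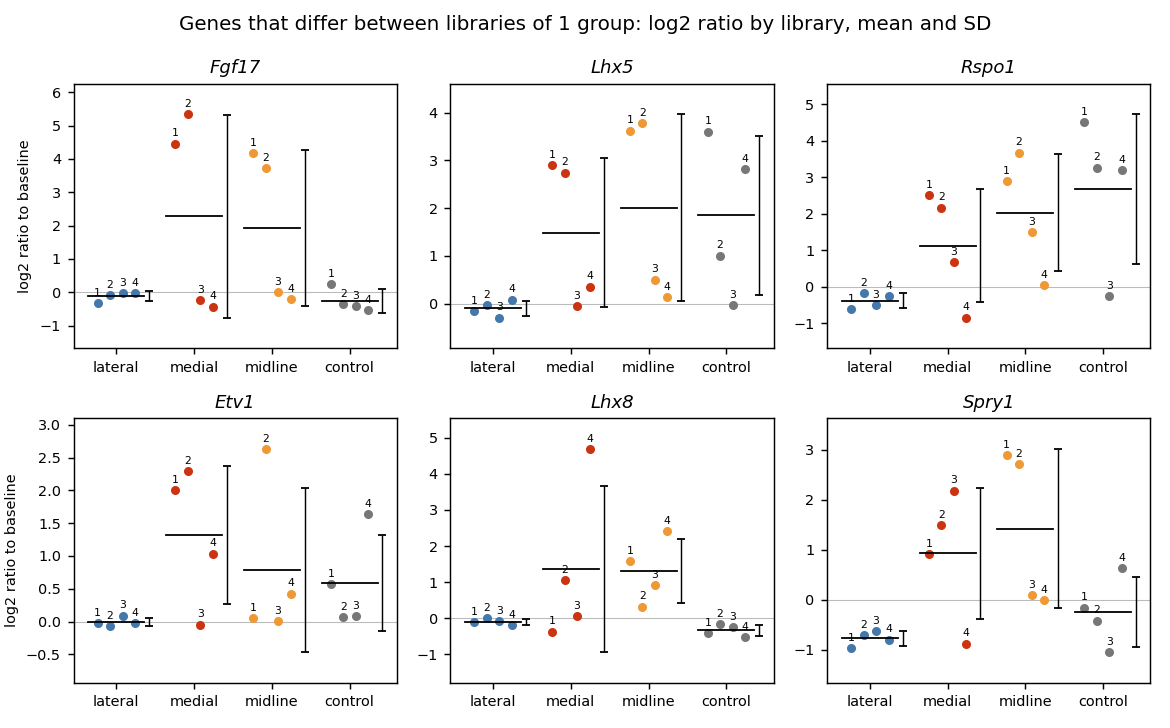
Log2 ratios to baseline (y axis) of 6 genes by library number in lateral, medial, midline and control neuroepithelium, with mean (line) and SD (bar). Fgf17 and Lhx5 are high in medial and midline libraries 1 and 2 and near 0 in libraries 3 and 4, and Lhx8 is high in medial library 4.

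Some genes of newborn neurons were among those that passed. In the list of early neuron genes 2 of 31 rose, Onecut2 and Dcx, where 0.176% of all genes rose. The median difference was 0.05, against 0.02 over all genes. Of the 31 genes, 20 had a positive and 11 a negative difference, down to -0.88, and 0 were apart between the groups. Onecut2, a cut-homeodomain factor of newborn neurons, was at 2.32, 3.13, 2.59 and 0.09 in medial libraries and 0.51, 0.09, 0.78 and 0.03 in lateral libraries. It overlapped through medial library 4 and differed by 1.68 ± 0.37, adjusted p = 0.013, a call that was lost in 9 of 20 alternatives. Dcx, a microtubule protein of migrating neurons, was at 0.09, 1.15, 0.20 and 1.53 in medial libraries and -0.02 to 0.17 in lateral libraries. Its difference of 0.65 ± 0.12 passed with adjusted p = 0.0014 and rested on medial libraries 2 and 4. Its SD was 0.71 in medial and 0.09 in lateral libraries, while the SE uses the shared spread.

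Map6, Cplx1 and Rundc3a, which were outside that list, also passed. Map6, which stabilises microtubules, was at 1.78, 1.25, 2.13 and 0.78 in medial libraries and 0.00 to 0.38 in lateral libraries, a difference of 1.35 ± 0.25 with adjusted p = 0.0014. Cplx1, a complexin that binds the vesicle fusion machinery, was at 0.36 to 2.10 in medial libraries and 0.06 to 0.13 in lateral libraries, a difference of 0.92 ± 0.16 with adjusted p = 0.00099. Rundc3a, a RUN-domain protein expressed in neurons, was at 2.48, 2.27, 2.27 and 2.85 in medial libraries, and lateral library 1, at 2.07, approached them while the other lateral values were -0.08 to 0.62. Its difference was 1.82 ± 0.41, adjusted p = 0.023, and this call was lost in 9 of 20 alternatives. The RNA-binding proteins of postmitotic neurons Elavl3 and Elavl4 had differences of 1.75 ± 0.59 and 1.14 ± 0.28 and did not pass, with adjusted p = 0.29 and 0.055. Stmn2, a tubulin-binding neuronal protein, was high in 7 of the 8 libraries, at 3.07 to 4.99, and at -0.18 in lateral library 4.

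Pou3f3 and its relative Pou3f2, POU factors of neural progenitors and neurons, had differences of opposite sign. Pou3f3 rose, with 0.81, 0.73, 2.28 and 2.83 in medial libraries against 0.14, 0.47, 0.24 and 0.48 in lateral libraries, a difference of 1.33 ± 0.26 and adjusted p = 0.0032. Pou3f2 had 3.52, 3.28, 4.69 and 4.62 in medial libraries and 4.80, 5.61, 5.66 and 6.13 in lateral libraries, without overlap. The Pou3f2 difference, -1.52 ± 0.83, had adjusted p = 0.68 in the shared-spread fit and did not pass. Its second probe set gave -0.22, so the size depended on the probe set.

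Among axon guidance genes 1 of 24 rose, Ephb1, a receptor for ephrin-B ligands. Ephb1 was at 1.39, 1.80, 1.40 and 2.63 in medial libraries and 1.68, 0.45, 0.68 and -0.13 in lateral libraries. Lateral library 1 lay inside the medial range. The difference was 1.13 ± 0.23 with adjusted p = 0.0057, but a second Ephb1 probe set differed by -0.31, so the call is uncertain. Epha3, a receptor for ephrin-A ligands, had a difference of -1.30 ± 0.35 with adjusted p = 0.11. It was high in lateral libraries 1 and 2, at 3.50 and 2.81, and low in lateral libraries 3 and 4, at 0.68 and 0.23.

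The remaining genes with the largest non-overlapping differences were of varied function. Gca, Alkal1 and D930028M14Rik, which are described with them, overlapped between the groups. H2ac4, a histone H2A gene, was at 1.23, 3.41, 4.16 and 1.28 in medial libraries and -0.29, -0.42, 0.47 and -0.13 in lateral libraries. It rose by 2.61 ± 0.49, with adjusted p = 0.0014. Histone genes of this family are near-identical, so signal from other copies cannot be told apart.

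Mfsd2a, a lipid transporter known at the blood-brain barrier, was at 2.48, 2.07, 3.36 and 3.16 in medial libraries and 1.34, -0.16, 0.52 and -0.16 in lateral libraries. It rose by 2.38 ± 0.48, with adjusted p = 0.0047. Its medial range lay wholly above its lateral range, and control libraries, at 0.88 to 3.08, overlapped both. Frmd5, a FERM-domain protein of cell junctions, was at 2.57, 2.01, 2.75 and 2.03 in medial libraries and 1.07, 0.04, 0.11 and 0.09 in lateral libraries, a difference of 2.01 ± 0.41 with adjusted p = 0.0054. The 4 medial values were within 1 log2 unit of each other.

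Ralyl, an RNA-binding protein, was at 0.09, 1.13, 3.24 and 2.93 in medial libraries and between -0.02 and 0.09 in lateral libraries. Medial library 1 was therefore at the lateral level, and the difference of 1.80 ± 0.35, adjusted p = 0.002, came from the other 3. Nol3, an inhibitor of apoptosis, was at 0.24, 0.59, 2.67 and 1.90 in medial libraries and -0.21 to -0.06 in lateral libraries, a difference of 1.46 ± 0.24 with adjusted p = 0.00048. Gca, the calcium-binding protein grancalcin, was at 2.85, 1.89, 0.06 and 1.79 in medial libraries and -0.04 to 0.09 in lateral libraries, a difference of 1.65 ± 0.28 with adjusted p = 0.00069. The medial library nearest to baseline was library 1 for Ralyl and Nol3 and library 3 for Gca.

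Anxa4, a calcium-dependent membrane-binding annexin, rose by 1.67 ± 0.36, with adjusted p = 0.0096. Fgfbp3, a secreted protein that binds FGFs, was at 1.36, 1.21, 2.96 and 2.27 in medial libraries and 0.28, 0.29, 0.86 and 0.88 in lateral libraries, a difference of 1.37 ± 0.32 with adjusted p = 0.037. Zfp946, a zinc finger gene, had a difference of 1.40 ± 0.34 with adjusted p = 0.05 after rounding, and the call was lost in 13 of 20 alternatives. The Fgfbp3 call was lost in 9 of 20. Plaat1, a phospholipid-modifying enzyme, and Alkal1, a ligand of the receptor kinases ALK and LTK, rose by 1.09 ± 0.20 and 0.57 ± 0.10. Plaat1 was at 0.09, 0.82, 2.46 and 0.50 in medial and -0.32 to 0.01 in lateral libraries. Its call was lost in 5 of 19 alternatives, among them that without medial library 3. Alkal1 was at 0.845, -0.011, 0.061 and 1.227 in medial and -0.161 to 0.042 in lateral libraries, so its difference came from medial libraries 1 and 4. The smallest p of all belonged to D930028M14Rik, a gene without a named product, which was at 3.93, 4.29, 0.26 and 1.63 in medial libraries and -0.09 to 0.36 in lateral libraries. Its difference was 2.47 ± 0.37, adjusted p = 5.8e-05, and it was named after its values were seen. Its SD was 1.91 in medial and 0.21 in lateral libraries, while the SE uses the shared spread.

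**Figure D4:**
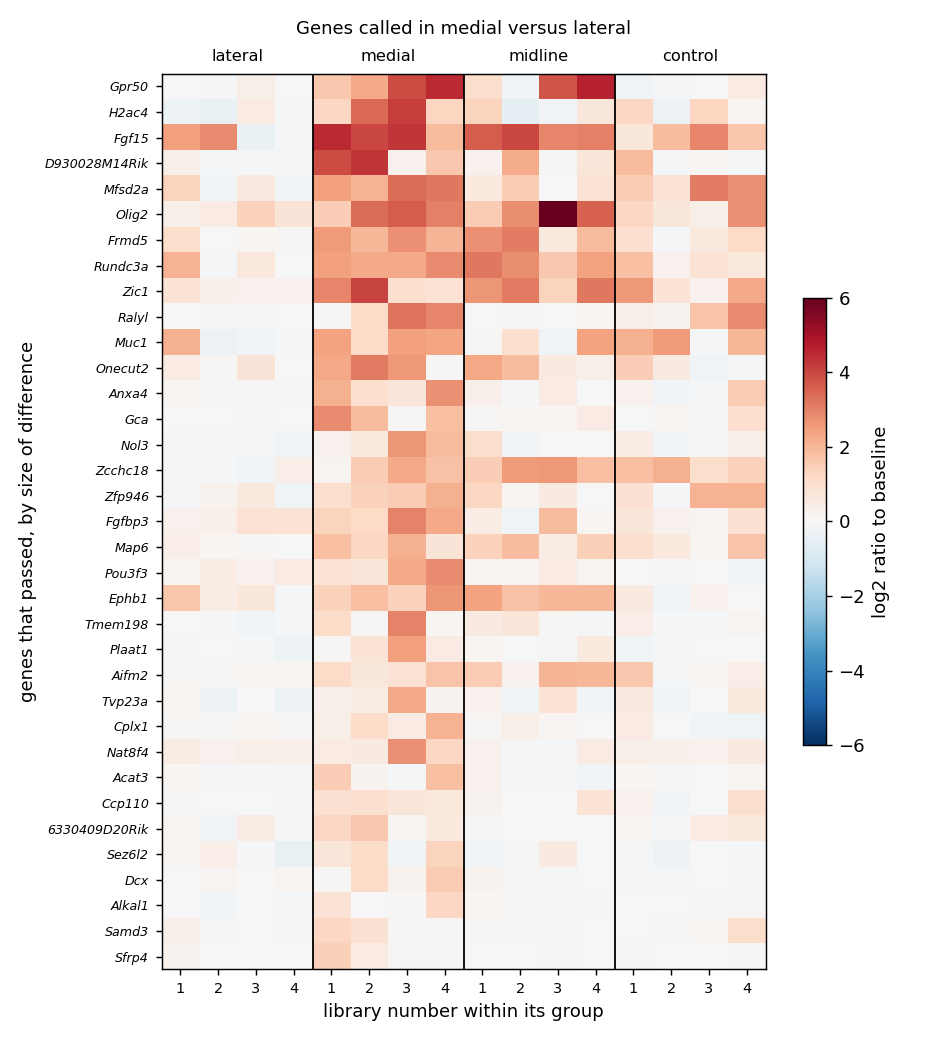
Log2 ratios to baseline (colour, red above and blue below 0) of the 35 genes that passed, ordered by the size of the medial minus lateral difference, in 16 neuroepithelium libraries (columns, numbered within each group). Lateral columns are pale for most genes, and medial libraries differ from each other in which genes are high.

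The other pathway lists gave 0 calls each in this comparison. Among 24 Notch and proneural genes the median difference was 0.02. Mfng, a glycosyltransferase that modifies Notch, was at 3.04 to 4.01 in medial libraries and 3.07, -0.62, 0.62 and 1.56 in lateral libraries, a difference of 2.26 ± 0.66 with adjusted p = 0.15. Among 20 BMP and roof plate genes the median was -0.01. Rspo1, an activator of WNT signalling known in the roof plate, had a difference of 1.51 ± 0.57, and Nog, a BMP antagonist, of 1.42 ± 0.48, neither of which passed. Among 22 WNT genes 17 had a negative difference, against 8846 of all 19938 genes, the median was -0.09, and the most negative was that of Sfrp2, a secreted WNT inhibitor, at -0.90 ± 0.56.

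Among 14 retinoic acid genes the median was -0.05, and Crabp1, a retinoic acid binding protein, had the largest difference, 1.08 ± 0.50. Among 17 optic and eye field genes the median was -0.11. Otx2, a homeobox gene of forebrain and midbrain, was at 4.00 to 4.59 in medial libraries and 3.31, 1.18, 2.96 and 0.86 in lateral libraries. The groups did not overlap, but the difference of 2.10 ± 0.60 had adjusted p = 0.15. Of 19 midbrain, hindbrain and Hox genes 18 had a negative difference, against 8846 of all 19938 genes, with a median of -0.15, and Otx2 was the exception.

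Cell cycle genes were lowest in the lateral libraries with the lowest tails. Of 17 such genes 15 had a positive difference, against 11092 of all 19938 genes, the median was 0.53 and 0 passed. Their mean was 0.50, 0.77, 0.30 and 0.46 in medial libraries and 0.47, -0.35, 0.15 and -0.50 in lateral libraries. The low lateral values were those of libraries 2 and 4, which also had the lowest 5th percentiles. With that percentile as a covariate of the fit, 44 genes passed, 41 higher and 3 lower in medial libraries, and 32 of them were among the 35. Without lateral libraries 2 and 4 together, 25 passed, 11 higher and 14 lower, and 11 of them were among the 35. The part of the lower tail in the calls was not tested. Cdkn1c, a cyclin-dependent kinase inhibitor, was at 1.01 to 1.59 in medial libraries and -0.33 to 0.29 in lateral libraries, a difference of 1.34 ± 0.44 with adjusted p = 0.27. Immediate early and stress genes, 13 in all, had a median difference of -0.06.

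Markers of other cell types gave 0 calls in each list. The mesenchyme and crest list had a median of -0.19, and Prrx2, a homeobox gene of craniofacial mesenchyme, a difference of -1.17 ± 0.59. The medians were -0.05 for 15 ectoderm, -0.13 for 12 endothelial, -0.10 for 8 erythroid and -0.05 for 11 macrophage markers. Endothelial marker means were -0.06 to 0.49 in medial and -0.09 to 0.68 in lateral libraries, highest in lateral library 1 and medial library 4. Macrophage marker means were -0.09 to 0.44 and -0.09 to 0.34. Erythroid marker means were -0.08 to 0.12 and -0.01 to 0.44. The ectoderm means were -0.62 to -0.13 and -0.46 to -0.16. Their part in the gene calls was not tested.

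**Figure D5:**
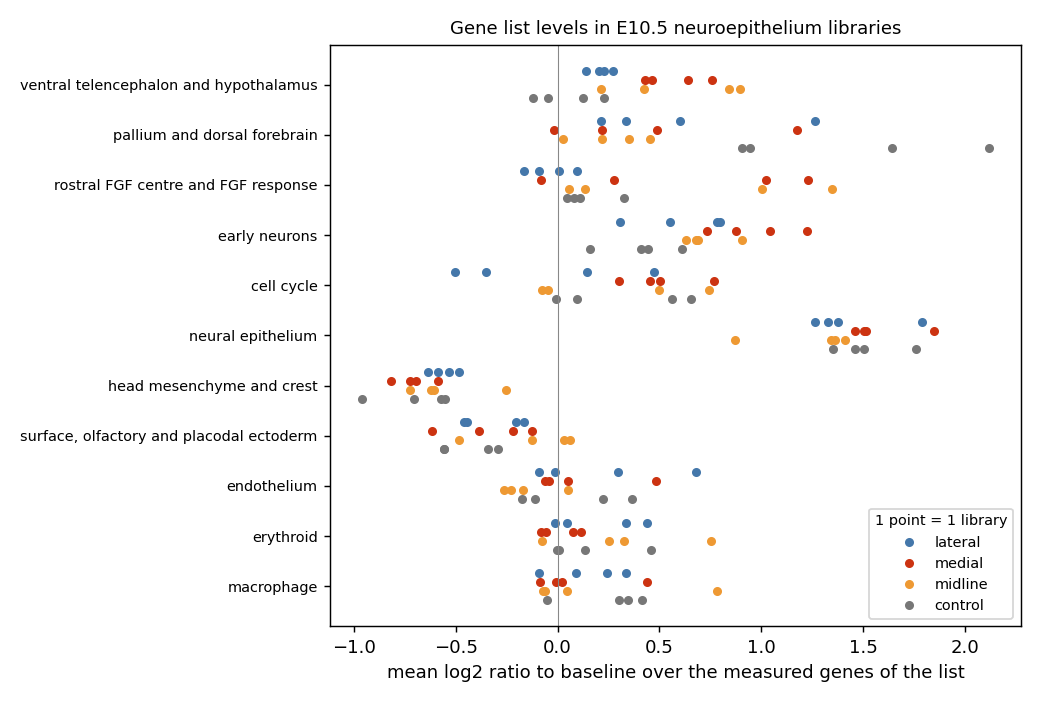
Mean log2 ratio to baseline over the measured genes of 11 lists (x axis) for each of 16 neuroepithelium libraries (points, coloured by group). Neural epithelium means are all above 0 and mesenchyme means all below 0. FGF means, which include the supplied marker Fgf15, are above 1 in 2 medial and 2 midline libraries. Cell cycle means are lowest in 2 lateral libraries.

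The midline libraries gave a further reference for both sides. The comparisons share libraries, so their values are set side by side and were not counted against each other. Medial and midline neuroepithelium differed in 45 genes, 0.226% of those tested, with 27 higher (0.135%) and 18 lower (0.0903%) in medial libraries, and after quantile normalization 10 and 14. Lateral and midline neuroepithelium differed in 112 genes, 0.562%, with 21 higher (0.105%) and 91 lower (0.456%) in lateral libraries, and after quantile normalization 23 and 45. With the compared groups alone in the fit these counts were 0 and 1, with 800 and 1026 genes at an unadjusted p under 0.05. The lateral count was 182 without midline library 3 and 74 without midline library 2.

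For Olig2 the medial minus midline difference was -0.58 ± 0.38 and the lateral minus midline difference -2.71 ± 0.38, with adjusted p = 1.0 and 1.6e-06. Gpr50 gave 0.78 ± 0.55 and -2.24 ± 0.55, with adjusted p = 1.0 and 0.024, and Fgf15 gave 0.28 ± 0.48 and -2.20 ± 0.48, with adjusted p = 1.0 and 0.0079. Zic1 gave -0.34 ± 0.36 and -2.15 ± 0.36, with adjusted p = 1.0 and 7.9e-05. These genes, and those named next, were supplied or picked for lower values in the same lateral libraries than in medial ones. A low lateral group is thus partly built in, and the p-values against the midline are not independent support. For Olig2, Gpr50, Fgf15 and Zic1 the lateral group was lower than the midline, and the medial group was not shown to differ from it. Rundc3a, Frmd5, Map6 and Ephb1 had the same arrangement, with lateral minus midline differences of -1.84, -1.74, -1.14 and -1.36, all of which passed, and medial minus midline differences of -0.03, 0.27, 0.20 and -0.23, none of which passed.

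Other genes were higher in medial than in midline libraries, with no call for lateral against midline. They had been picked for high values in the same medial libraries against lateral ones. A high medial group is thus partly built in, and the p-values against the midline are not independent support. H2ac4 gave 2.20 ± 0.49 for medial minus midline and -0.41 ± 0.49 for lateral minus midline, with adjusted p = 0.016 and 1.0. Mfsd2a gave 2.04 ± 0.48 and -0.35 ± 0.48, with adjusted p = 0.031 and 1.0. Pou3f3 gave 1.43 ± 0.26 and 0.09 ± 0.26, with adjusted p = 0.0017 and 1.0. Gca, Nol3, Cplx1 and Dcx gave medial minus midline differences of 1.45, 1.13, 0.86 and 0.68, all of which passed, and lateral minus midline differences of -0.19, -0.33, -0.06 and 0.03, none of which passed.

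Pax6 and Neurog2 were higher in lateral than in midline libraries, by 4.13 ± 0.74 and 1.62 ± 0.30, with adjusted p = 0.00034 and 0.00059. Their medial minus midline differences were 1.15 ± 0.74 and 0.42 ± 0.30 and did not pass. Epha3 and Nr2f1 were also higher in lateral than in midline libraries, by 1.80 ± 0.35 and 2.65 ± 0.58, with adjusted p = 0.0018 and 0.0079. For Nr2f1 midline library 2 was lowest, at -3.75. Pax6, Neurog2, Epha3 and Nr2f1 were named for large medial to lateral differences with lateral higher. A high lateral group is thus partly built in here too.

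The nasal prominences over this epithelium were compared in the same way, and the difference between the 2 mediolateral differences was tested as an interaction. It passed for 8 genes, 0.0401% of those tested, with 4 (0.0201%) of each sign (3 positive and 5 negative after quantile normalization), and 10.3% of genes had an unadjusted p under 0.05. Gpr50, Olig2 and Fgf15 did not pass: the prominence differences were 0.21, 0.35 and -0.24, and the interaction was 2.81 ± 0.78, 1.78 ± 0.54 and 2.71 ± 0.68, with adjusted p = 0.19, 0.23 and 0.14. Of the 35 genes, 3 passed, Nol3 at 1.75 ± 0.34 (adjusted p = 0.009), Gca at 1.83 ± 0.40 (adjusted p = 0.041) and 6330409D20Rik at 1.20 ± 0.20 (adjusted p = 0.00098). The 35 had been picked for a large neuroepithelium difference, which is part of the interaction. Their passing is therefore favoured by that choice and is not independent support. For Nol3 the medial prominence libraries were at -0.34 to 0.11 and the lateral eminence libraries at 0.17 to 0.27. Hpgd, which breaks down prostaglandins, had an interaction of 2.37 ± 0.47 (adjusted p = 0.009), with lateral eminence library 3 at 4.44 and the other 3 at 0.72 to 0.93.

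Lrrc58 had an interaction of -0.93 ± 0.18 (adjusted p = 0.0073). It was at -0.12 to -0.01 in medial and 0.01 to 0.50 in lateral neuroepithelium, and at 0.50 to 0.60 in the medial prominence and -0.16 to 0.10 in the lateral eminence. The values of the 2 tissues thus ran in opposite directions, each without overlap between sides. The neuroepithelium difference by itself, -0.36 ± 0.12, did not pass (limma, adjusted p = 0.32), and the prominence difference was 0.57. Ucma, a secreted protein known in cartilage, had an interaction of -0.85 ± 0.19 (adjusted p = 0.041) and was at 0.48 to 1.57 in the medial prominence. Without lateral neuroepithelium library 1 the interaction passed for 23 genes, and without medial neuroepithelium libraries 1 and 3 in turn for 13 and 15. It passed for 5 without lateral neuroepithelium library 3, and for 18 and 21 without medial prominence libraries 3 and 4.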

How the data were processed

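The authors deposited 1 table of linear ratios for 35557 probe sets, of which 6701 had no value. Per the submitters' processing notes RMA and mm9 were used, with no version given. Every probe set had a median of 1, within 6e-08, over 1 set of 21 samples that held medial library 1 and no lateral library, so the division by a baseline was read off the numbers, not from a stated method. None of the 8 libraries held the lowest ratio, 0.01. No detection calls or background levels were used, and the number of arrays limits the precision.

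Ratios as deposited by the authors were turned into log2 values without further scaling. Of 28856 probe sets with values, 21789 had 1 symbol. The probe set with the highest mean stood for each of 19938 genes, 999 of which had several. limma 3.58.1 in R 4.3.3 was fitted over 102 labelled samples in 22 groups (lmFit, eBayes, 80 residual degrees of freedom), with Benjamini-Hochberg adjustment over all genes and a threshold of 0.05. One E9.5 sample whose title and tissue label name different groups was left out. The test was tried on simulated data in which each gene had the same spread in every group. Spreads that differ between groups, such as those given for Gpr50, were not simulated. Alternatives changed the scaling, weights, prior, probe set rule, groups, covariates and libraries.

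Named genes were the supplied markers, up to 12 non-overlapping called genes per direction with the largest difference, called and the 3 most different members of each list, further genes by p up to 20, and up to 3 interaction genes per sign. The members and lists were chosen with earlier results of these data known. Titles give lateral, midline and control libraries the same numbers, but deviations of same-numbered libraries correlated between -0.21 and 0.40, so the numbers were not taken as pairs. Promoters came from RefSeq (GRCm38.p6).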

Additional observations from a re-analysis of the deposited data

Results flagged for a closer look

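In groups of 4 libraries, a value was singled out where its gap to the nearest other value was, as a share of the group's whole range, above Dixon's critical value for 4 values. This held for 15 of 152 groups, over 76 named genes (9.87%), where chance gives about 1 in 20, and 8 of the 15 were lateral library 1. The chance share is for independent normal values, whereas many of these genes were picked by the same values. The share over all genes was not counted, so no excess is shown. Lateral library 1 stood apart at 1.07 for Frmd5, 0.81 for Zic1, 0.29 for Cdkn1c, -1.82 for Msx1, 0.43 for Egfl7, 1.08 for C1qc and 1.10 for Sfrp2, all above the other lateral libraries, and at -2.52 for Krt8, below them. Lateral library 3 stood apart at 0.34 for Gpr50 and 2.13 for Gata1, an erythroid factor, and lateral library 4 at -0.20 for Ucma. Medial library 3 stood apart at 4.59 for Otx2 and 0.10 for C1qc. Medial library 4 stood apart at 2.60 for Pecam1, an endothelial gene, and 1.94 for Tyrobp, a macrophage gene, the other medial values being 0.03 to 0.26 and -0.37 to -0.05.

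The mediolateral difference in neuroepithelium differed from that in the nasal prominences, by the interaction test in limma at an adjusted p under 0.05, for 8 genes. The difference of differences was 2.37 for Hpgd, 1.83 for Gca, 1.75 for Nol3 and 1.20 for 6330409D20Rik. It was -0.53 for Rnase2b, -0.85 for Ucma, -0.89 for 4930483J18Rik and -0.93 for Lrrc58. For 4930483J18Rik the medial prominence libraries were at 0.29 to 1.11 and all 12 other libraries of this contrast at -0.14 to 0.17.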

How the results depend on the processing

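The medial versus lateral count of 35 became 10 after quantile normalization (7 higher, 3 lower), 125 with array weights (109 higher, 16 lower), 1 with the compared groups alone and 0 with the E10.5 neuroepithelium groups alone, the last an alternative added after seeing the data. Leaving out 1 library at a time gave 30 to 77. Leaving out lateral libraries 2 and 4 together, also added after seeing the data, gave 25 (11 higher, 14 lower). The other alternatives gave 32 to 44, of which E10.5 groups alone gave 39, with 17 of the 35 among them. The interaction count of 8 became 19 with array weights, 4 with the compared groups alone, 3 with E10.5 groups alone and 14 without widely spread arrays, and 5 to 23 with 1 library left out. The medial versus midline count of 45 became 24 after quantile normalization, 72 with array weights, 0 with the compared groups alone, 16 with E10.5 groups alone and 28 with only the more variable genes, and 34 to 67 with 1 library left out. The lateral versus midline count of 112 became 68 after quantile normalization and 1 with the compared groups alone, and 74 to 182 with 1 library left out. With the replicate block in lateral, midline and control libraries alone it was 0, and 2 without the block in the same libraries, with 1191 and 1082 genes at an unadjusted p under 0.05. No paired analysis was possible for medial versus lateral because the titles give these groups no shared number. The causes of these shifts were not tested. Fits of few groups hold fewer libraries, and so fewer residual degrees of freedom, but the part of this in the counts was not tested either. No named gene reversed a call. Of 20 alternatives Gpr50 passed in 17, Olig2 in 16, Fgf15 in 15 and Zic1 in 14, with differences of 2.55 to 3.52, 1.71 to 2.60, 1.93 to 3.06 and 1.19 to 2.27, and adjusted p up to 0.54. Gca and D930028M14Rik passed in 18, whereas Rundc3a, Fgfbp3 and Onecut2 passed in 11, Muc1 in 8, Zfp946 and Aifm2 in 7 and Tvp23a in 6. Pax6, which had not passed, passed in 6 of 20 and Neurog2 in 3. Placing the conflicting libraries by title leaves no comparison, so that alternative gave no value. The ratios carry no signal over background, so the limit that dim genes set was not assessed.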

Other observations

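Control neuroepithelium, taken away from the facial prominences, entered no test here and is given as values. The mean over the 26 pallium and dorsal forebrain genes was 0.91 to 2.12 in control libraries, 0.21 to 1.27 in lateral, -0.02 to 1.18 in medial and 0.03 to 0.46 in midline libraries. Control values overlapped the lateral and medial ranges and lay above the midline range. The mean over the 20 BMP and roof plate genes was -0.18 to 1.24 in control libraries and 0.00 or less in the medial, lateral and midline libraries. Rspo1, a roof plate gene, was at 4.51, 3.27, -0.26 and 3.20 in control libraries, so control library 3 stood apart from the other 3. Wnt7a, a WNT ligand, was higher in lateral than in midline libraries by 1.03 ± 0.26 (SE, n = 4 and 4; limma, adjusted p = 0.029), with 2.34, 0.79, 0.24 and 0.59 against -0.26 to 0.13.

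Of the genes that passed between medial and lateral libraries, some were not described above and were chosen after their values were seen. Zcchc18, a zinc finger gene, was at 0.18, 1.51, 2.26 and 1.74 in medial, -0.16 to 0.39 in lateral, 1.49 to 2.60 in midline and 1.06 to 2.12 in control libraries, so the lateral group alone stayed near baseline. Aifm2, an oxidoreductase that protects membrane lipids from peroxidation, was at 0.68 to 1.73 in medial and 0.08 to 0.12 in lateral libraries, with 2 midline libraries above 2, and its call was lost in 13 of 20 alternatives. Sfrp4, a secreted WNT inhibitor, was at 1.44, 0.51, 0.07 and 0.06 in medial libraries and between -0.14 and 0.20 in all 12 lateral, midline and control libraries. Ccp110, a centriole protein, was at 0.66 to 0.95 in medial and -0.14 to 0.04 in lateral libraries.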
